A study of Mus musculus with 10 samples.

Results

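Expression of 35 genes of innate immune sensing was followed in whole uteri of early pregnancy. They comprised 5 cell-surface Toll-like receptors (*Tlr1*, *Tlr2*, *Tlr4*, *Tlr5*, *Tlr6*), 7 endosomal Toll-like receptors (*Tlr3*, *Tlr7*, *Tlr8*, *Tlr9*, *Tlr11*, *Tlr12*, *Tlr13*), 2 co-receptors (*Cd14*, *Ly96*) and 4 adaptors (*Myd88*, *Tirap*, *Ticam1*, *Ticam2*). A further 6 genes were kinases, a ubiquitin ligase and inhibitors downstream of the adaptors (*Irak1*, *Irak2*, *Irak3*, *Irak4*, *Traf6*, *Tollip*), and 7 were cytosolic sensors with their kinase and adaptors (*Nod1*, *Nod2*, *Ripk2*, *Ddx58*, *Ifih1*, *Mavs*, *Tmem173*). The last 4 were the shared output kinase and transcription factors (*Tbk1*, *Irf3*, *Irf5*) and the C-type lectin *Clec7a*. The genes were chosen by name, with earlier results of these data known. All 35 were found by their identifier among the 45706 genes of the count table, and all 35 were among the 25146 genes with a mean of at least 1 read per sample, which were the genes tested. The lowest count of any of them in any uterus was 42 reads.

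RNA was sequenced from 10 whole uteri taken on gestation day (GD) 3.5, shortly before embryos attach: 5 of *Arid1a f/f* genotype, the controls, and 5 of *Ltf iCre/+ Arid1a f/f* genotype, called knockout uteri here although the deletion is directed to the epithelium. All came from intact, mature adult females of a mixed background of C57BL/6 and several 129 substrains that had been mated with wildtype males, and both groups carried the floxed *Arid1a* alleles. In knockout mice, Cre expressed from the lactoferrin locus deletes *Arid1a*, a subunit gene of the SWI/SNF chromatin remodeling complex, in the endometrial epithelium of the adult. Lactoferrin is also a product of neutrophils, so recombination may extend to leukocytes that express many of the genes described here, and it was not measured in these libraries. The question addressed here was whether loss of epithelial *Arid1a* was accompanied by altered expression of the genes through which microbial and endogenous ligands are sensed.

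Toll-like receptors span the membrane and bind lipids, proteins or nucleic acids of microbes with their outer or luminal part. All except TLR3 recruit the adaptor MYD88, which assembles IRAK kinases and the ubiquitin ligase TRAF6 and leads to NF-kappa B and IRF transcription factors, whereas TLR3 and internalized TLR4 signal through TICAM1 (TRIF), TBK1 and IRF3. Nucleic acids and peptidoglycan fragments in the cytosol are sensed by separate proteins that act through RIPK2, MAVS or STING. In the uterus these genes are expressed by epithelial cells as well as by resident leukocytes, among which macrophages and dendritic cells carry most receptors.

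Libraries held 65351817 to 72702411 counted reads in control uteri and 59296537 to 67990486 in knockout uteri. *Arid1a* itself was at 213 ± 22.9 counts per 1000000 reads (CPM, mean ± SD, n = 5) in control and 185 ± 15.9 CPM in knockout uteri. The log2 fold change of -0.20 did not pass the test (adjusted p = 0.201, edgeR). The libraries are of whole uteri, and the part of cells other than epithelium in this value was not tested. Markers of epithelium, stroma and myometrium were detected in every library. Summed gland markers ranged from 63.0 to 110 CPM in control and from 7.23 to 47.0 CPM in knockout uteri, with *Foxa2* lower by the test (adjusted p = 0.00570, edgeR) and the protease genes *Prss28* and *Prss29* without reads in 7 and 5 of the 10 libraries. Of 5 stromal markers *Dcn* was lower (adjusted p = 0.0109, edgeR). Summed epithelial markers ranged from 595 to 788 CPM in control and from 862 to 1782 CPM in knockout uteri, with 4 of 5 genes higher by the test, and summed endothelial markers from 669 to 936 and from 305 to 464 CPM, with 5 of 5 lower. T cell markers summed to 10.9 to 14.3 against 21.7 to 70.3 CPM, with 3 of 5 higher. Macrophage markers summed to 203 to 382 CPM in control and 320 to 743 CPM in knockout uteri, where 8 of 10 genes had a higher mean. Of the 10 macrophage markers 0 passed in edgeR, while DESeq2 called *Cd68* as higher and *Mertk* as lower. An unadjusted p under 0.05 (edgeR) was found for 4 of the 10 and for 6593 of all 25146 tested genes. Dendritic cell markers summed to 50.9 to 65.0 CPM in control and 56.1 to 104 CPM in knockout uteri. Of these 7 genes, *Zbtb46* was lower in edgeR (adjusted p = 0.0109), and DESeq2 called 3, *Zbtb46* as lower and *Itgax* and *Batf3* as higher. The part of these differences in the values below was not tested. Knockout replicate 5 stood apart from the other libraries. Its neutrophil markers summed to 856 CPM, against 13.1 to 23.6 CPM in the other 4 knockout uteri and 6.10 to 24.7 CPM in the controls, and its macrophage sum was the highest of the 10 uteri. It also had the highest value of all 10 uteri for 23 of the 35 sensing genes (65.7%), compared with 15.2% of all tested genes.

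The promoter sequences of 4 genes are shown, each with a match to a searched motif. *Tlr1* and *Tlr6* are neighbours whose ratio separated the genotypes. *Myd88* and *Ddx58* were the genes whose values in every knockout uterus lay below every control. *Tirap*, *Irak2*, *Irf5* and *Clec7a*, with higher means in knockout uteri, held no match to any searched motif and are not shown. No link between motif and direction is drawn from the 4 shown. *Tlr1* (chr5:64924679-64933563) and *Tlr6* (chr5:64952031-64960097) lie on the minus strand of the same chromosome in GRCm38, separated by 18467 bases. Each sequence holds 150 bases from RefSeq (GRCm38.p6), from 130 bases before to 20 bases after an annotated start, on the minus strand and written 5′ to 3′ along the gene. The windows are chr5:64933539-64933688 for *Tlr1*, chr5:64959147-64959296 for *Tlr6*, chr9:119339999-119340148 for *Myd88* and chr4:40239806-40239955 for *Ddx58*. Capitals mark a PU.1 motif in *Tlr1* and the core of an interferon-stimulated response element (ISRE) in the other three.
Tlr1: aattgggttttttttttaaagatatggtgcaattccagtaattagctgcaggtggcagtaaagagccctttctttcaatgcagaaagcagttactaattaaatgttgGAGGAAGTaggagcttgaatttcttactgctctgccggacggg
Tlr6: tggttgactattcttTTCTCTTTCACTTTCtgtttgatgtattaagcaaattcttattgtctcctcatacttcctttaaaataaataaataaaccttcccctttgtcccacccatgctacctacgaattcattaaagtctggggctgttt
Myd88: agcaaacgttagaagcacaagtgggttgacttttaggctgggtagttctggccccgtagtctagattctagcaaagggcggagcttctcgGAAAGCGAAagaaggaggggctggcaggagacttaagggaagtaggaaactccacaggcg
Ddx58: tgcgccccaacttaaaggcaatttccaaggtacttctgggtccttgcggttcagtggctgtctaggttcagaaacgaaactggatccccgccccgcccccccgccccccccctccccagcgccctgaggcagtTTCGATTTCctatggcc
The PU.1 motif, bound by a transcription factor of macrophages and other myeloid cells, was searched as GAGGAAGT and the ISRE core, bound by IRF and STAT complexes, as GAAANNGAA, each on both strands and in windows of 250 bases before to 50 bases after the start. In *Tlr6* 2 ISRE matches overlap, 115 and 109 bases before the start on the opposite strand. The match of *Myd88* began 40 bases before the start and that of *Tlr1* 23 bases before it, both on the strand of the gene. The window printed for *Myd88* lies within the model of *Acaa1a* on the other strand.

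RefSeq windows were given for 28 of the 35 genes. Missing from the table were *Tlr4*, *Tlr7*, *Cd14*, *Ly96*, *Ticam2*, *Ripk2* and *Tmem173*. The ISRE core was present in 7 of the 28 genes (*Ddx58*, *Ifih1*, *Irak3*, *Myd88*, *Tlr6*, *Tlr8*, *Tlr11*), where 9.76% of all genes with a window of this length had it. The PU.1 motif was in 3 (*Tlr1*, *Tlr9*, *Tlr11*), against 3.69% of all genes, and the kappa B consensus, bound by NF-kappa B, in 2 (*Tlr2*, *Tlr3*), against 5.14%. These matches describe letters in a window and are not evidence of binding. Of the 7 genes with the ISRE core, *Myd88*, *Tlr6*, *Irak3* and *Ddx58* had lower means in knockout uteri and *Ifih1*, *Tlr8* and *Tlr11* higher means.

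Among the 35 genes, 5 passed the threshold of 0.05 on the adjusted p of edgeR's quasi-likelihood test. *Tlr1*, *Tirap*, *Irf5* and *Clec7a* were higher in knockout uteri and *Ddx58* was lower. Over all 25146 tested genes the same rule called 9.70%, with 5.19% higher and 4.51% lower, and the members' share was not tested against it. An unadjusted p under 0.05 (edgeR) was found for 9 of the 35 genes and for 6593 of the 25146. DESeq2, which called 16.3% of all tested genes, called 8 of the 35 genes, the same 5 and in addition *Irak2* as higher and *Tlr6* and *Myd88* as lower. The genotypes did not overlap for 6 genes (*Tlr1*, *Irak2*, *Irf5* and *Clec7a* higher, *Myd88* and *Ddx58* lower), where 10.7% of all tested genes had no overlap. The median log2 fold change of the 35 genes was 0.19 and 28 of them had a higher mean, compared with a median of 0.03 and 52.7% higher among all tested genes. Without knockout replicate 5 the median was 0.04 and 20 of the 35 genes were higher. In these bulk samples, a change in the number of cells of one type and a change in RNA per cell cannot be told apart.

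**Figure D1:**
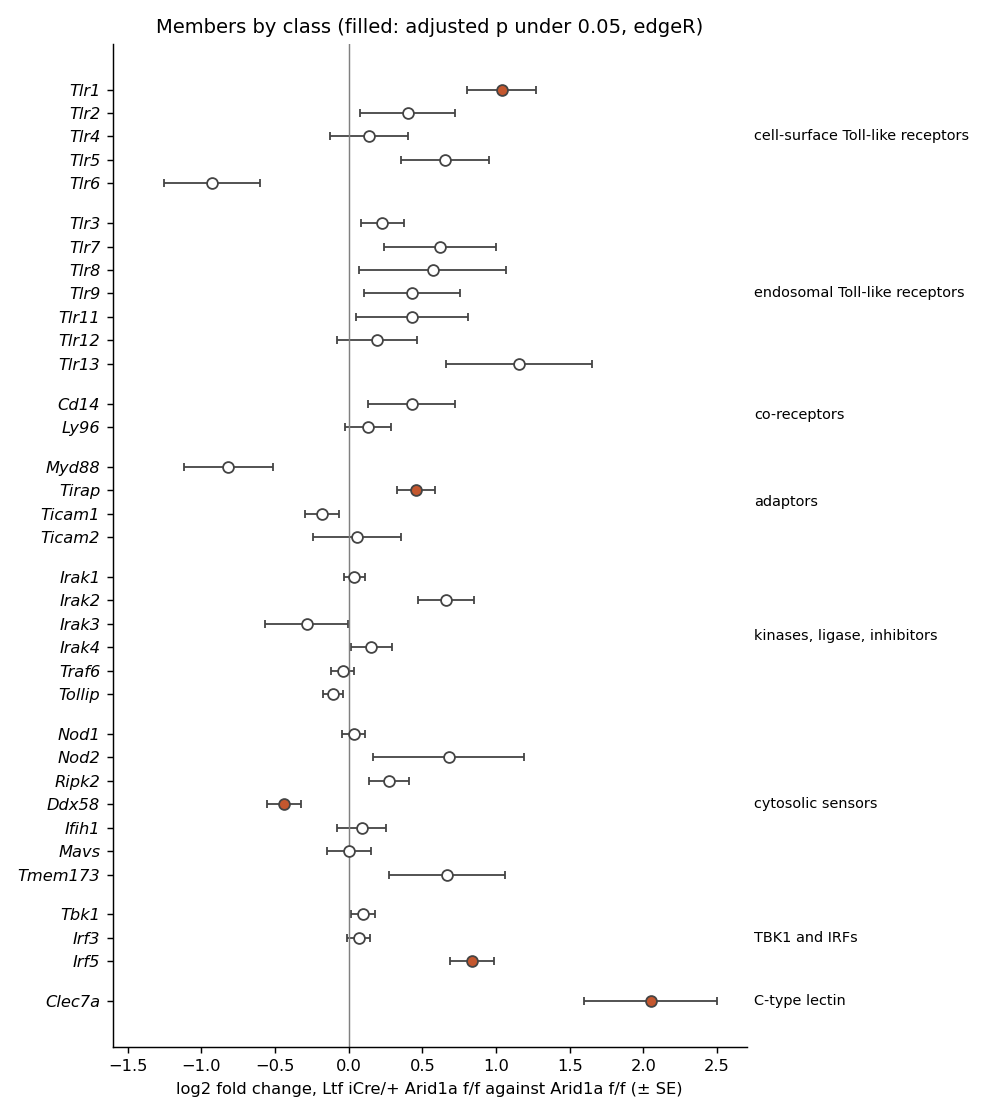
Log2 fold change of each of the 35 genes in *Ltf iCre/+ Arid1a f/f* (knockout) against *Arid1a f/f* (control) uteri (horizontal axis, edgeR), by functional class, with bars of 1 standard error (n = 5 uteri per genotype). Filled points passed an adjusted p of 0.05: *Tlr1*, *Tirap*, *Irf5* and *Clec7a* lie to the right of 0 and *Ddx58* to the left, while *Tlr6* (-0.93) and *Myd88* (-0.82) are the most negative points and are open.

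Among the cell-surface receptors, *Tlr1* was 2.05-fold higher in knockout uteri and *Tlr6* had a mean 0.526 times that of the controls. *Tlr1* and *Tlr6* encode alternative partners of TLR2, with which they recognize triacylated and diacylated lipopeptides, respectively. *Tlr1* stood at 6.53, 7.62, 8.82, 8.95 and 9.75 CPM in control uteri 1 to 5 and at 16.5, 10.8, 13.2, 17.4 and 27.8 CPM in knockout uteri 1 to 5. All 5 knockout values exceeded all control values, with replicate 5 highest. *Tlr1* had a log2 fold change of 1.04 (SE 0.23, adjusted p = 0.0188, edgeR). It was 0.79 without knockout replicate 5 (adjusted p = 0.0177, edgeR), and the gene failed the threshold only when control replicate 2 was left out (adjusted p = 0.0556, edgeR).

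*Tlr6* stood at 3.06, 9.30, 10.1, 7.30 and 11.4 CPM in control uteri 1 to 5 and at 4.37, 3.26, 3.43, 3.97 and 6.64 CPM in knockout uteri 1 to 5. Control replicate 1 was the lowest of all 10 uteri, and the other 4 controls lay above every knockout uterus. Its log2 fold change of -0.93 (SE 0.32) did not pass in edgeR (adjusted p = 0.0953) and passed in DESeq2 (adjusted p = 0.0291). It passed in edgeR without control replicate 1, at -1.14 (adjusted p = 0.0174), and in none of the other 9 fits that left out 1 uterus.

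*Tlr2*, which encodes the shared partner and had the highest level per length of the cell-surface receptors in controls, stood at 15.9, 21.0, 16.7, 15.04 and 15.6 CPM in control uteri 1 to 5. In knockout uteri 1 to 5 it was at 17.5, 13.6, 14.5, 17.2 and 48.6 CPM. The genotypes overlapped, and only replicate 5 exceeded the control range. Its difference of 0.40 on the log2 scale did not pass (adjusted p = 0.483, edgeR) and became -0.10 without that uterus. *Tlr4*, the receptor for lipopolysaccharide, was at 30.6 ± 5.04 CPM in control and 33.7 ± 17.4 CPM in knockout uteri (log2 fold change 0.14, adjusted p = 0.798, edgeR), and its difference was -0.24 without replicate 5. *Tlr5*, the flagellin receptor, was near the bottom of the range in both genotypes, at 1.42 ± 0.20 and 2.23 ± 1.11 CPM (log2 fold change 0.65, adjusted p = 0.194, edgeR, and 0.32 without replicate 5).

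**Figure D2:**
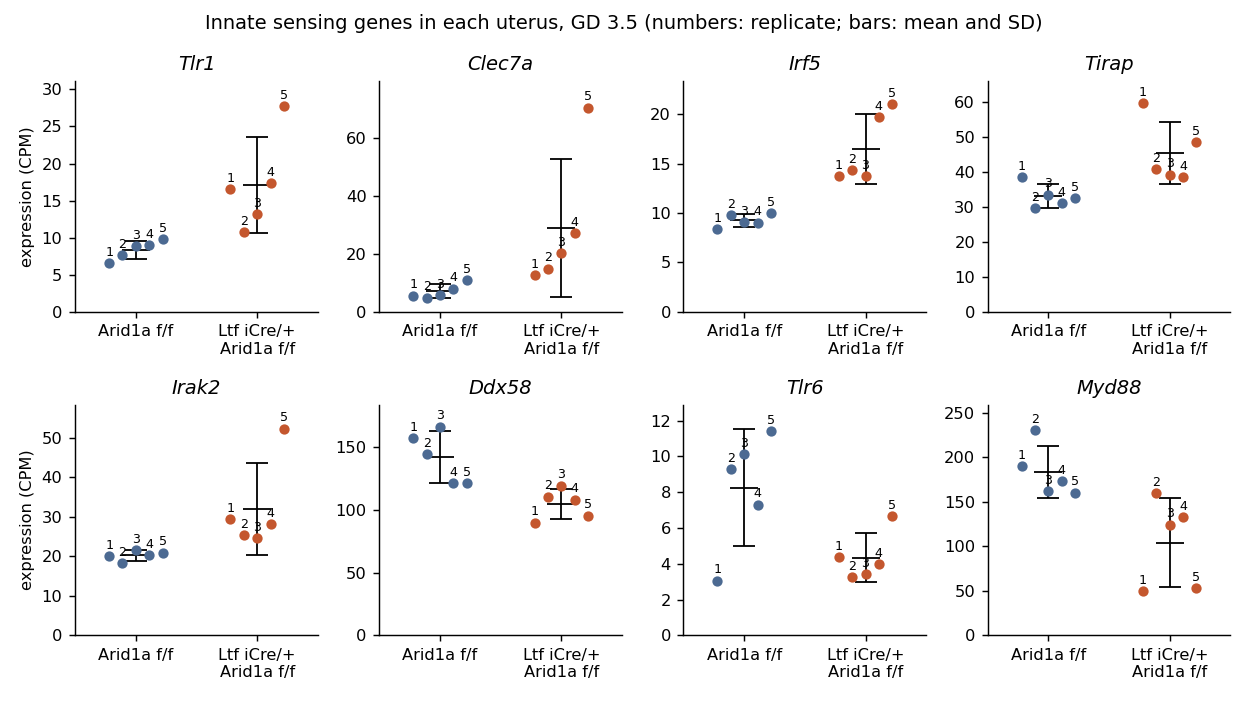
CPM in each uterus (vertical axes, linear from 0) for the 8 genes that passed in edgeR or DESeq2, with *Arid1a f/f* (control) uteri in blue and *Ltf iCre/+ Arid1a f/f* (knockout) uteri in red. Numbers give the replicate and bars the mean and SD of 5 uteri. Knockout replicate 5 is the highest of 10 uteri for *Tlr1*, *Clec7a*, *Irf5* and *Irak2*, whereas for *Myd88* it and replicate 1 lie at 53.0 and 49.7 CPM, below the other 8.

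The ratio of *Tlr1* to *Tlr6* within each uterus separated the genotypes. Counts of both genes in the same library enter this ratio, so that library size cancels. It was 2.13, 0.820, 0.870, 1.23 and 0.854 in control uteri 1 to 5 and 3.77, 3.30, 3.83, 4.38 and 4.18 in knockout uteri 1 to 5. The log2 ratio differed by 1.82 (SE 0.27), and here knockout replicate 5 lay within the range of its group, the difference being 1.79 without it. Against *Tlr2*, the log2 ratio of *Tlr1* was higher by 0.75 (SE 0.21) and that of *Tlr6* differed by -1.07 (SE 0.37), and the genotypes overlapped in both. The pairs were picked with the values of single genes known, so no p-value is attached to them. The transcripts of *Tlr1* and *Tlr6* share 454 runs of 50 bases, 13.6% of those of *Tlr1* and 12.3% of those of *Tlr6*, and how reads from these stretches were assigned was not tested.

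**Figure D3:**
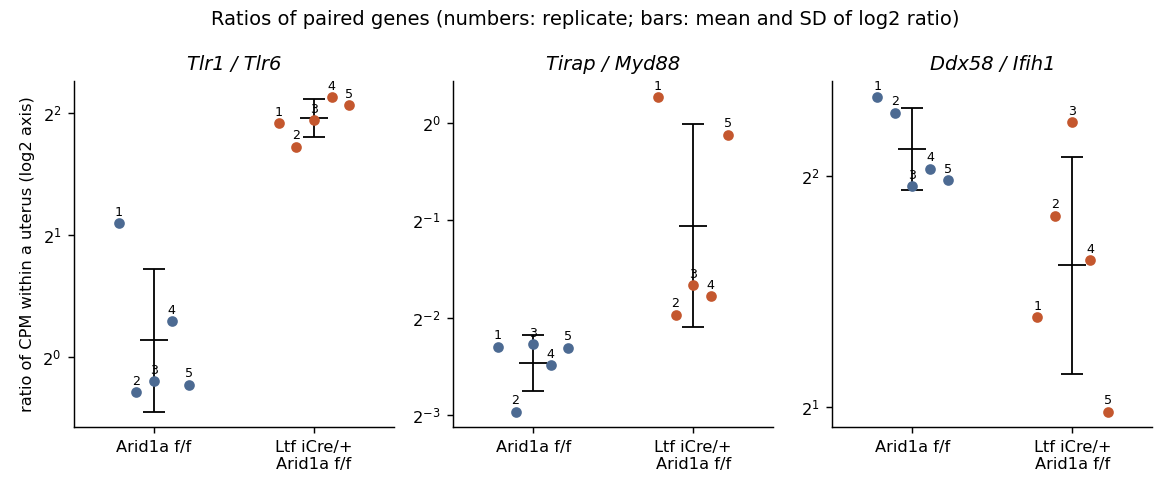
Ratio of the CPM of 2 genes within each uterus (vertical axes, log2 scale) for 3 pairs of related genes, with replicate numbers beside the points and bars for the mean and SD of the log2 ratio (n = 5 uteri per genotype). *Tlr1* to *Tlr6* is 0.820 to 2.13 in control and 3.30 to 4.38 in knockout uteri, *Tirap* to *Myd88* does not overlap either, and *Ddx58* to *Ifih1* overlaps.

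All 7 endosomal receptors had higher means in knockout uteri, and 0 passed the test in edgeR or DESeq2. At an unadjusted p under 0.05 edgeR named 1 of the 7, *Tlr13*, and 6593 of all 25146 tested genes. These receptors sense nucleic acids (TLR3, TLR7, TLR8, TLR9, TLR13) or profilin of protozoa (TLR11, TLR12) inside the cell, and TLR11, TLR12 and TLR13 have no functional counterpart in humans. The median log2 fold change of the class was 0.43 and became 0.13 without knockout replicate 5. *Tlr3*, the sensor of double-stranded RNA and the most abundant of them per length, stood at 28.5, 24.6, 33.5, 32.1 and 30.0 CPM in control uteri 1 to 5 and at 39.4, 30.1, 24.4, 39.3 and 40.8 CPM in knockout uteri 1 to 5. Its genotypes overlapped, with 3 knockout uteri above the control range (log2 fold change 0.23, adjusted p = 0.369, edgeR).

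*Tlr13* had the largest difference of the class, from 5.24 ± 1.83 to 11.7 ± 10.9 CPM (log2 fold change 1.16, SE 0.50, adjusted p = 0.165, edgeR). It was at 31.0 CPM in knockout replicate 5 and at 4.74 to 9.27 CPM in the other 4, and the difference was 0.39 without that uterus. *Tlr7* and *Tlr8*, neighbours on chromosome X that sense single-stranded RNA, were also highest in replicate 5. *Tlr7* was at 21.9 CPM in replicate 5 and 6.59 to 8.79 CPM in the other 4, against 3.40 to 9.93 CPM in controls, and its log2 fold change of 0.62 became 0.13 without replicate 5. *Tlr8* was at 16.4 CPM in replicate 5, at 2.72 to 4.85 CPM in the other 4 and at 1.94 to 6.89 CPM in controls, and its log2 fold change of 0.57 became -0.18 without replicate 5. The lowest control values of *Tlr6*, *Tlr7*, *Tlr8*, *Tlr9* and *Tlr13* were all in control replicate 1, which also had the lowest macrophage marker sum of the 10 uteri (203 CPM). The part of cell numbers in these values was not tested. *Tlr9*, *Tlr11* and *Tlr12* averaged 3.34, 1.22 and 2.60 CPM in control and 4.49, 1.64 and 2.97 CPM in knockout uteri, and the log2 fold change of *Tlr9*, 0.43, became 0.11 without replicate 5.

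The co-receptors *Cd14* and *Ly96*, which present lipopolysaccharide to TLR4 and complete its binding site, did not pass in edgeR or DESeq2, and neither had an unadjusted p under 0.05. *Cd14* stood at 50.4, 55.4, 48.5, 61.8 and 56.9 CPM in control uteri 1 to 5 and at 69.2, 42.8, 47.5, 57.8 and 150 CPM in knockout uteri 1 to 5. Replicates 1 and 5 were above the control range and replicates 2 and 3 below it (log2 fold change 0.43, adjusted p = 0.404, edgeR, and -0.01 without replicate 5). *Ly96* averaged 5.82 ± 0.36 and 6.38 ± 1.31 CPM (adjusted p = 0.657, edgeR).

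**Figure D4:**
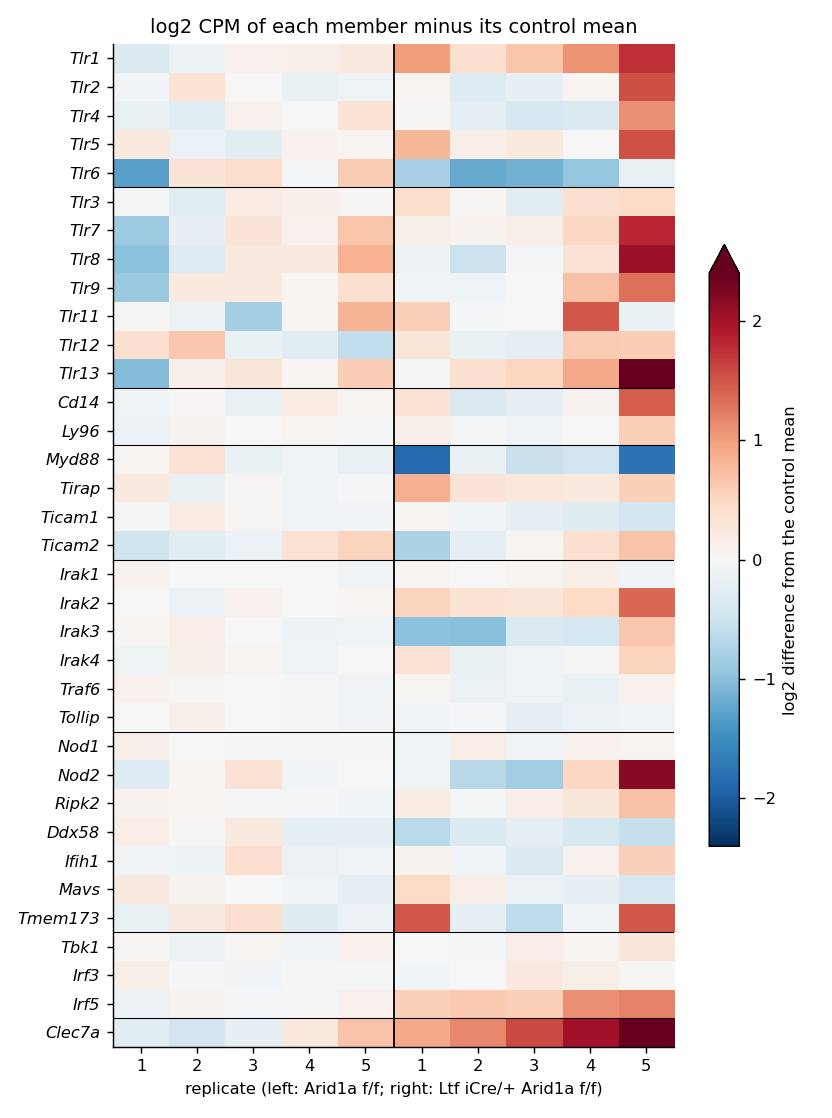
Log2 CPM of each gene in each uterus minus the mean of the 5 control uteri (colour, red higher and blue lower; a pointed end of the scale marks values beyond it), with genes in rows grouped by class and uteri in columns. The column of knockout replicate 5 is the reddest, with a median of 0.59 over the 35 genes, where the other 4 knockout uteri have medians of -0.09 to 0.10; *Tlr1*, *Irf5*, *Irak2* and *Clec7a* are red in all 5.

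The adaptors differed in direction, and 1 of the 4, *Tirap*, passed in edgeR. *Myd88*, the common adaptor and the most abundant of the 35 genes per length in controls, had a mean 0.568 times that of the controls, and *Tirap*, which recruits MYD88 to TLR2 and TLR4 at the plasma membrane, rose 1.37-fold. *Myd88* stood at 190, 231, 162, 173 and 160 CPM in control uteri 1 to 5 and at 49.7, 160, 125, 133 and 53.0 CPM in knockout uteri 1 to 5. Replicates 1 and 5 were far below the other 3, and replicate 2 was just under the lowest control. The log2 fold change was -0.82 (SE 0.30) and did not pass in edgeR (adjusted p = 0.112), nor in any of its 10 fits that left out 1 uterus (adjusted p from 0.0577 to 0.219), whereas DESeq2 called it (adjusted p = 0.0461).

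*Myd88* (chr9:119335934-119341411, minus strand) shares 290 of its 2576 exonic bases with exons of *Acaa1a* (chr9:119339676-119350299, plus strand), which encodes a peroxisomal thiolase. *Acaa1a* stood at 92.6, 59.7, 54.0, 78.5 and 78.6 CPM in control uteri 1 to 5 and at 67.6, 96.8, 105, 107 and 69.0 CPM in knockout uteri 1 to 5. The genotypes overlapped, and the log2 fold change was 0.29 (adjusted p = 0.333, edgeR). Among the knockout uteri, replicates 1 and 5 were lowest for both genes. The strand setting of the counting was not given, but of 195 listed genes whose exons are wholly covered by exons of listed genes on the opposite strand, 152 had reads and 39 had a mean of 10 or more, which a count that ignored strand would have left out as ambiguous. By the same gene models, 411 of the 2905 exonic bases of *Irf5* lie opposite *Tnpo3*, and the other overlaps (*Tirap*, *Irak3*, *Irak4*, *Irf3*) cover 39 to 395 bases.

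*Tirap* stood at 38.6, 29.6, 33.5, 31.0 and 32.5 CPM in control uteri 1 to 5 and at 59.6, 40.9, 39.3, 38.6 and 48.6 CPM in knockout uteri 1 to 5. Control replicate 1 and knockout replicate 4 were nearly level, and the other 4 knockout uteri lay above every control. With a log2 fold change of 0.46 (SE 0.13) it was the call closest to the threshold (adjusted p = 0.0481, edgeR), and it was kept in 3 of the 10 fits that left out 1 uterus. It failed without any of control replicates 2 to 5 (adjusted p from 0.0974 to 0.118) and without knockout replicates 1, 2 or 5 (0.0743, 0.0507 and 0.0764, edgeR), with log2 fold changes of 0.34 to 0.52 throughout. The ratio of *Tirap* to *Myd88* was 0.128 to 0.207 in control uteri and 1.20, 0.256, 0.315, 0.291 and 0.917 in knockout uteri 1 to 5. It did not overlap between the genotypes, and the log2 difference was 1.41 (SE 0.48), falling to 1.079 and 1.176 when knockout replicate 1 or 5 was left out.

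*Ticam1*, the adaptor of TLR3, averaged 20.02 ± 1.60 CPM in control and 17.7 ± 2.47 CPM in knockout uteri (log2 fold change -0.18, adjusted p = 0.355, edgeR). *Ticam2*, which links TLR4 to TICAM1, was at 1.85 ± 0.56 and 1.92 ± 0.70 CPM (adjusted p = 0.930, edgeR). Of its 5792 exonic bases, 838 are shared with *Tmed7* on the same strand, and reads there may have been left out as ambiguous.

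Of the 6 genes downstream of the adaptors, 0 passed in edgeR. An unadjusted p under 0.05 (edgeR) was found for 1, as for 6593 of all 25146 tested genes, and the same 1 passed in DESeq2. This gene, *Irak2*, encodes a kinase that sustains signalling from the MYD88 complex. It stood at 20.01, 18.2, 21.7, 20.3 and 21.0 CPM in control uteri 1 to 5 and at 29.4, 25.3, 24.7, 28.1 and 52.4 CPM in knockout uteri 1 to 5. The genotypes did not overlap. A log2 fold change of 0.66 (SE 0.19) gave an adjusted p of 0.0515 in edgeR and of 0.0148 in DESeq2. Without knockout replicate 5 it was smaller, 0.41, and passed (adjusted p = 0.0211, edgeR), and it also passed without replicates 2 or 3 of that genotype (0.0436 and 0.0408, edgeR).

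*Irak3* encodes a catalytically inactive member of the family that restrains signalling. It stood at 14.5, 15.6, 14.1, 12.8 and 13.05 CPM in control uteri 1 to 5 and at 7.04, 6.98, 11.0, 10.5 and 21.9 CPM in knockout uteri 1 to 5. Of these, 4 lay below every control and replicate 5 above every control. The log2 fold change was -0.29 over all uteri (adjusted p = 0.574, edgeR) and -0.66 without replicate 5, where it passed (adjusted p = 0.0330, edgeR). *Irak1*, the most abundant of these genes per length, stood at 179, 168, 168, 170 and 158 CPM in control uteri 1 to 5 and at 177, 170, 176, 185 and 159 CPM in knockout uteri 1 to 5 (log2 fold change 0.04, SE 0.07, adjusted p = 0.778, edgeR). *Irak4*, the kinase that starts the cascade, *Traf6* and the inhibitor *Tollip* had log2 fold changes of 0.15, -0.04 and -0.11, and all overlapped between genotypes.

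Of the cytosolic sensors, *Ddx58*, which encodes RIG-I and detects RNA with a triphosphate end, fell to 0.737 times the control mean. It stood at 158, 144, 166, 121 and 121 CPM in control uteri 1 to 5 and at 89.9, 111, 119, 108 and 95.4 CPM in knockout uteri 1 to 5. The genotypes did not overlap, although control replicates 4 and 5 and knockout replicate 3 were close. The log2 fold change was -0.44 (SE 0.11, adjusted p = 0.0346, edgeR). The call was kept in 4 of the 10 fits that left out 1 uterus and failed without control replicates 1, 2 or 3 (adjusted p = 0.0711, 0.0751 and 0.0841, edgeR) and without knockout replicates 1, 4 or 5 (0.0612, 0.0572 and 0.0605, edgeR), while the log2 fold change stayed between -0.50 and -0.39.

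*Ifih1*, which encodes MDA5, the sensor of long double-stranded RNA, averaged 32.8 ± 5.65 CPM in control and 34.8 ± 8.49 CPM in knockout uteri (log2 fold change 0.09, adjusted p = 0.793, edgeR). The ratio of *Ddx58* to *Ifih1* ranged from 3.88 to 5.08 in control and from 1.97 to 4.70 in knockout uteri, with overlap. *Mavs*, the mitochondrial adaptor of both, was at 49.9 ± 5.53 and 49.9 ± 12.1 CPM. Its values in knockout uteri ran from 37.7 to 68.3 CPM, a wider range than the 42.9 to 57.4 CPM of controls.

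*Tmem173*, which encodes STING, the adaptor for cytosolic DNA sensing, took 2 sets of values within the knockout group. It stood at 35.2, 46.5, 52.2, 32.7 and 35.99 CPM in control uteri 1 to 5 and at 112, 34.3, 26.0, 37.7 and 112 CPM in knockout uteri 1 to 5. Replicates 1 and 5 were above every control, and they were the same uteri in which *Myd88* was lowest. Both also had the highest epithelial marker sums of the knockout group, 1782 and 1235 CPM against 862 to 1068 CPM in the others. Their gland marker sums were the lowest, 7.23 and 18.6 CPM against 27.1 to 47.0 CPM. The part of tissue composition in this split was not tested. The log2 fold change of *Tmem173*, 0.67 (SE 0.40), did not pass (adjusted p = 0.319, edgeR) and was 0.37 without replicate 5. The peptidoglycan sensor *Nod1* averaged 45.1 ± 2.36 and 46.2 ± 3.62 CPM, *Nod2* 4.04 ± 0.67 and 6.46 ± 6.67 CPM, and their kinase *Ripk2* 15.1 ± 0.74 and 18.2 ± 3.79 CPM, and none passed in edgeR or DESeq2. *Nod2* was at 18.1 CPM in knockout replicate 5 and at 2.24 to 5.66 CPM in the other 4, and its log2 fold change of 0.68 became -0.19 without that uterus.

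*Irf5*, a transcription factor that acts below MYD88 in macrophages and dendritic cells, rose 1.79-fold and was the gene whose call held in all 10 fits that left out 1 uterus. It stood at 8.34, 9.80, 9.10, 9.03 and 9.96 CPM in control uteri 1 to 5 and at 13.7, 14.3, 13.8, 19.7 and 21.0 CPM in knockout uteri 1 to 5. The lowest knockout value was well above the highest control. The log2 fold change was 0.84 (SE 0.15, adjusted p = 0.00697, edgeR), from 0.73 to 0.89 when 1 uterus was left out, with an adjusted p of at most 0.0251. *Irf3*, the factor phosphorylated by TBK1 and the most abundant of its class per length, stood at 65.9, 58.0, 57.5, 61.2 and 57.8 CPM in control uteri 1 to 5 and at 57.7, 59.5, 70.7, 66.0 and 61.2 CPM in knockout uteri 1 to 5, with overlapping genotypes (adjusted p = 0.636, edgeR). *Tbk1* averaged 52.4 ± 3.34 and 56.0 ± 5.34 CPM (adjusted p = 0.516, edgeR).

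*Clec7a*, which encodes dectin-1, the beta-glucan receptor of myeloid cells, showed the largest rise of the 35 genes, 4.14-fold. It stood at 5.58, 4.88, 5.83, 7.995 and 10.8 CPM in control uteri 1 to 5 and at 12.6, 14.9, 20.2, 27.1 and 70.4 CPM in knockout uteri 1 to 5. Every knockout uterus exceeded every control. Its log2 fold change was 2.05 (SE 0.45, adjusted p = 0.0181, edgeR) and 1.41 without knockout replicate 5 (adjusted p = 0.0111, edgeR). It failed the threshold without control replicates 2 or 3 (adjusted p = 0.0555 and 0.0539, edgeR). In the 4 knockout uteri other than replicate 5, the summed macrophage markers were 320 to 424 CPM, against 203 to 382 CPM in controls, and the neutrophil markers 13.1 to 23.6 CPM, against 6.10 to 24.7 CPM. Dendritic cell markers summed to 63.5 to 104 CPM in these 4, against 50.9 to 65.0 CPM in controls. Inflammatory monocyte markers summed to 259 to 569 CPM, against 294 to 556 CPM. *Plac8* was the largest part of that sum, averaging 316 CPM in controls. With replicate 5 included, *Chil3* of these 6 markers was higher in edgeR (adjusted p = 0.0409). DESeq2 called *Chil3* (adjusted p = 0.00126) and *Ccr2* (0.0372) as higher. Of 7 neutrophil markers, *Ly6g* was higher in edgeR (adjusted p = 0.0294) and DESeq2 (8.2e-05). *Chil3* and *Ly6g* averaged 0.092 and 0.108 CPM in control and 2.03 and 1.56 CPM in knockout uteri. The part of leukocyte numbers in the values of *Clec7a* was not tested.

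Levels were compared between genes as CPM per kilobase of exonic length (RPKM). In control uteri they spanned from 0.296 ± 0.041 RPKM for *Tlr5* to 71.1 ± 11.3 RPKM for *Myd88*. *Irak1* (35.8 ± 1.61) and *Cd14* (31.5 ± 3.08) followed *Myd88*, their control ranges overlapping with each other but not with that of *Myd88*. *Ddx58* (20.2 ± 2.93), *Irf3* (17.5 ± 1.04), *Tollip* (15.4 ± 0.83), *Mavs* (14.9 ± 1.65), *Tmem173* (14.8 ± 3.07) and *Tbk1* (13.4 ± 0.85) came next in RPKM, each overlapping its neighbour in this order except *Irf3* and *Tollip*, whose control ranges adjoined. The receptors were lower, from 5.71 RPKM for *Tlr3* and 5.59 RPKM for *Tlr2* to 0.373 RPKM for *Tlr11* and 0.296 RPKM for *Tlr5*. The adaptor shared by most receptors was thus at a higher RPKM in controls than any receptor. In knockout uteri *Myd88* was at 40.4 ± 19.4 RPKM, where it overlapped *Cd14* at 42.4 ± 25.3 RPKM, and *Clec7a* went from 2.66 ± 0.92 to 11.0 ± 9.02 RPKM.

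**Figure D5:**
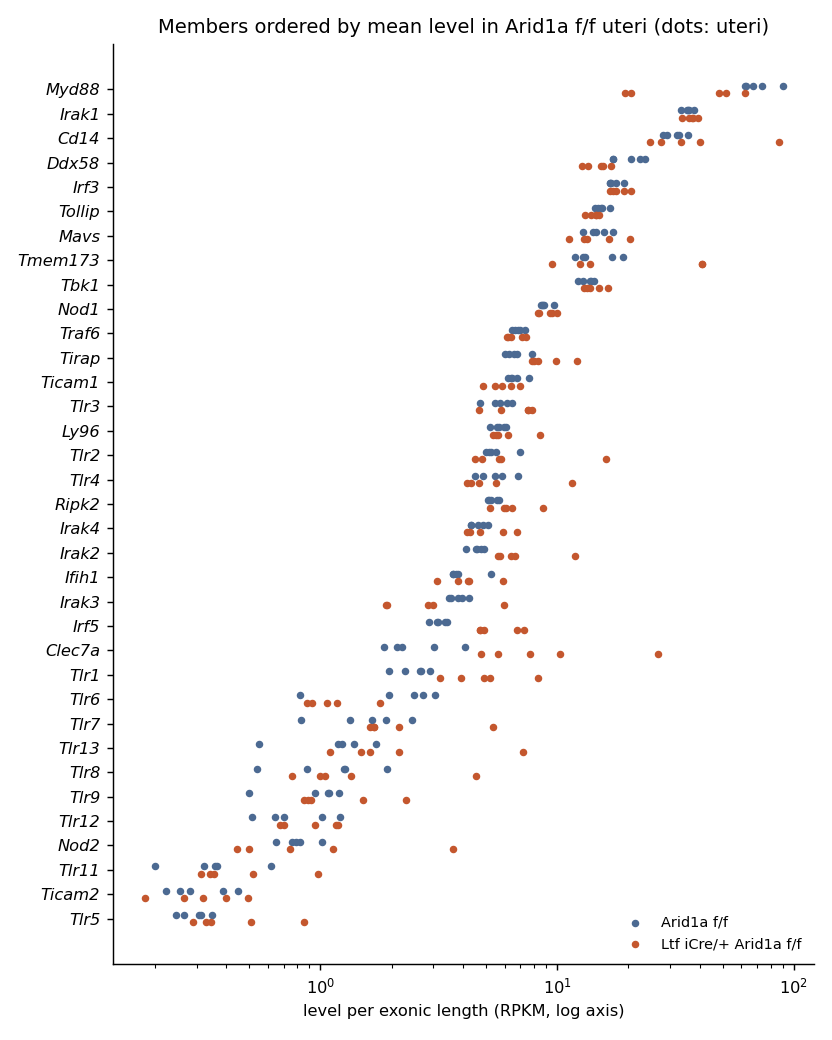
Level per exonic length (RPKM, log axis) of each gene in each control uterus (blue) and knockout uterus (red), with genes ordered by the control mean. *Myd88* is at the top with 71.1 RPKM and *Tlr5* at the bottom with 0.296 RPKM. Red points lie above all blue ones for *Irf5*, *Clec7a*, *Tlr1* and *Irak2*, and below all blue ones, by a narrow gap, for *Ddx58* and *Myd88*.

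The other genes of these pathways were represented by 49 genes listed from general knowledge, with earlier results of these data known. In edgeR 1 was higher and 2 were lower, against 5.19% and 4.51% of all tested genes. A higher mean was found for 33 of the 49, with a median log2 fold change of 0.12. Among all tested genes 52.7% were higher, with a median of 0.03. *Mb21d1*, which encodes the DNA sensor cGAS, rose from 13.3 ± 1.73 to 19.0 ± 1.99 CPM (log2 fold change 0.52, adjusted p = 0.0217, edgeR). *Peli2*, a ubiquitin ligase that acts on IRAK proteins, fell from 105 ± 17.2 to 61.2 ± 8.67 CPM (-0.77, adjusted p = 0.00570, edgeR), and *Ikbkg*, the regulatory subunit of the IKK complex, from 67.2 ± 3.04 to 54.0 ± 4.20 CPM (-0.32, adjusted p = 0.0228, edgeR). The genotypes did not overlap for any of these 3 genes. DESeq2 called 7 of the 49, against 16.3% of all tested genes. They were the same 3 with *Ly86* and *Nlrc3* as higher and *Peli1* and *Rnf135* as lower.

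By group, 2 of 13 genes of TAK1, IKK and ubiquitin signalling were lower and 1 of 8 other nucleic acid sensing genes was higher. Among 6 genes for trafficking and ligand delivery, 4 transcription factors, 10 negative regulators and 8 genes of C-type lectin signalling, 0 passed in edgeR. DESeq2 called 2 of the negative regulators and 0 of the others. In the order given, 1, 1, 5 and 5 had an unadjusted p under 0.05 (edgeR), as did 6593 of all 25146 tested genes. All 8 C-type lectin genes had a higher mean, as did 52.7% of all tested genes. They summed to 248 CPM in knockout replicate 5 and to 121 to 144 CPM in the other 4 knockout uteri, against 111 to 141 CPM in controls. *Clec4e*, which encodes the lectin Mincle, averaged 0.439 ± 0.18 CPM in control and 5.87 ± 12.3 CPM in knockout uteri, and 27.9 CPM of it was in 1 uterus (log2 fold change 3.73, adjusted p = 0.108, edgeR). *Card9*, the adaptor of dectin-1 signalling, averaged 1.63 ± 0.35 and 2.498 ± 0.83 CPM (adjusted p = 0.158, edgeR), and *Syk*, its kinase, 25.0 ± 2.652 and 32.6 ± 13.9 CPM (adjusted p = 0.327, edgeR). *Tnfaip3*, the NF-kappa B feedback inhibitor A20, was at 9.19 ± 0.73 and 20.8 ± 22.7 CPM, with 61.5 CPM in its highest uterus (adjusted p = 0.160, edgeR).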

How the data were processed

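Per the labels and the authors' methods, 5 control and 5 knockout uteri each gave 1 mRNA library, read as 50 bp pairs. Reads were trimmed by the authors (cutadapt 1.18, Trim Galore 0.6.4), who aligned them to GRCm38 with STAR 2.7.3a and deposited unnormalized whole-number counts of reads per gene from its GeneCounts mode. The annotation release and strand setting are not given in the sources used here. Totals were 59296537 to 72702411 counts per library, at which 3 counts equal 0.0418 to 0.0507 CPM. Columns were matched to samples by name, and no 2 libraries of a genotype agreed within sampling noise.

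Gene symbols and exonic lengths came from GENCODE models of GRCm38, which covered 45143 of 45706 identifiers. The test was the quasi-likelihood test of edgeR 4.0.16 in R 4.3.3 on genes averaging 1 count per sample or more, with TMM scaling, genotype as sole factor, Benjamini-Hochberg adjustment over 25146 genes and a threshold of 0.05. CPM used TMM library sizes and RPKM divided CPM by exonic length. DESeq2 1.42.0, other scalings and filters, the replicate number as a block and leaving out each uterus were alternatives, and the procedure was checked on simulated counts. An exact permutation test of single genes was also set up and is not given, since for genes without overlap it restates that they do not overlap. Replicates are taken as separate animals, since the authors count n in animals. Same-numbered uteri did not deviate together (r of deviations from -0.05 to 0.13), which cannot exclude that the numbers pair them. The authors compared littermates where they could, and whether the numbers mark littermates is not given.

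The members, classes, pathway and marker lists were chosen with earlier results of these data known. Every member was named. Values in all 10 uteri were given for members that passed in either tool or did not overlap and for the highest level per length in each class, with *Tlr6*'s and *Myd88*'s partners and *Irak3* and *Tmem173* added after their values were seen. Likeness between members within a genotype was not computed, since 5 uteri are too few. Promoter sequences came from RefSeq (GRCm38.p6).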

Additional observations from a re-analysis of the deposited data

Results flagged for a closer look

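For each of the 35 genes and each genotype, the highest and lowest of the 5 uteri were compared with the rest by Dixon's ratio of the gap to the range at its 95% critical value. Of these 70 groups 14 held a uterus beyond it. The nominal rate of about 1 in 20 assumes normally distributed values, and CPM were used without a transformation. The share over all tested genes was not computed, so the 14 cannot be read as an excess in these genes. In 11 of the 14 the uterus was knockout replicate 5, which was the highest of its group: *Tlr2* 48.6, *Tlr4* 64.4, *Tlr7* 21.9, *Tlr8* 16.4, *Tlr13* 31.0, *Cd14* 150, *Ly96* 8.64, *Irak2* 52.4, *Irak3* 21.9, *Nod2* 18.1 and *Clec7a* 70.4 CPM. The other 3 were controls that were the highest of their group, with *Tlr2* at 21.0 CPM in replicate 2, *Nod1* at 49.3 CPM in replicate 1 and *Ifih1* at 42.8 CPM in replicate 3. The genes are not independent of each other within a uterus. The summed neutrophil markers of knockout replicate 5 were 856 CPM, and the part of this in its values was not tested.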

How the results depend on the processing

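Over the alternative values of the 35 log2 fold changes, 512 kept their direction and side of the threshold, 10 newly passed, 18 no longer passed and 20 changed sign. DESeq2 gave 8 genes past the threshold, 3 of them lower, and 7 of the other pathway genes. When 1 uterus was left out, the genes past the threshold ranged from 1 to 6 (higher 1 to 5, lower 0 to 1). The other pathway genes past it ranged from 1 to 4, and 6 to 8 of the 35 genes did not overlap. With fewer uteri a lack of overlap is easier to reach. Its share over all tested genes was not computed for these sets, so this range does not show that the separation is stable. Only *Irf5* passed without control replicate 2, and *Tlr1* and *Irf5* without control replicate 3, fits in which 1204 and 1248 of all genes passed in place of 2438. *Tlr1*, *Irf5* and *Clec7a* passed without knockout replicate 1. The count of other pathway genes was 1 without control replicate 4 or 5. No member was lower by the test without control replicates 2 or 3 or knockout replicates 1 or 4, and the gene lower in place of *Ddx58* was *Tlr6* without control replicate 1 and *Irak3* without knockout replicate 5. *Tirap* did not pass with RLE scaling (adjusted p = 0.0520, edgeR) or without a filter (0.0516). The cause was not tested.

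*Mavs*, at 0.00 in the reported fit, had a log2 fold change of -0.012 with upper-quartile scaling, -0.00071 with filterByExpr and -0.022 with the replicate block. Ranges with 1 uterus left out that crossed 0 were -0.14 to 0.088 (*Mavs*), -0.13 to 0.21 (*Ticam2*), -0.0028 to 0.064 (*Nod1*), -0.10 to 0.53 (*Tlr2*), -0.24 to 0.24 (*Tlr4*), -0.18 to 0.82 (*Tlr8*), -0.0068 to 0.57 (*Cd14*), -0.0030 to 0.18 (*Ly96*), -0.19 to 0.90 (*Nod2*) and -0.061 to 0.19 (*Ifih1*), and the log2 ratio of *Ticam2* to *Ticam1* ranged from -0.019 to 0.47. With the replicate block, added although same-numbered uteri did not deviate together, the same 5 genes passed and 1704 of all genes did. Leaving out uteri of the gene pairs and their block were alternatives chosen after seeing the data. At these depths the lowest member count was 42 reads, and for the genes with the fewest reads counting error is a part of the spread between uteri.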
